A study of Mus musculus with 12 samples.

Results

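The 33 genes described here encode nuclear receptors of the mouse. They were taken by gene name from the 48537 genes of the table, as the nuclear receptor superfamily without the REV-ERB receptors themselves, the ROR receptors, Thra, Ppara, Nr1h4, Nr0b2 and Nr3c1. The rule for the choice uses gene names alone, and it was set with earlier results of these data known. Of the 33 genes, 26 averaged at least 1 TPM over the 12 livers and were tested, and 7 did not. TPM is a gene's read count per length of transcript, scaled by the authors so that each library sums to the same total.

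Nuclear receptors are transcription factors, most of which carry a pocket for a small lipophilic molecule such as a steroid, a fatty acid, an oxysterol, a bile acid, a retinoid, thyroid hormone or a drug. In the liver they set hepatocyte identity (HNF4 alpha, LRH-1), the handling of drugs and bile acids (PXR, CAR), sterol and fatty acid metabolism (LXR and PPAR receptors) and the response to hormones, and many bind DNA only together with a retinoid X receptor (RXR). REV-ERBalpha (gene Nr1d1) and REV-ERBbeta (gene Nr1d2) belong to the same superfamily; they bind heme, repress transcription and form an arm of the circadian clock.

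RNA-seq was done on total RNA of 12 mouse livers, 4 in each of 3 groups, all taken at zeitgeber time 10 (ZT10, 10 h after lights on). The first group is labelled as a double knockout of the REV-ERBs that re-expresses wild-type REV-ERBalpha, the second as the double knockout with yellow fluorescent protein (YFP), and the third as wild type with YFP. The labels give neither the deleted part of each gene, nor how deletion and re-expression were made, nor age or sex. The deposited column names mark the second group with Cre and the third without it, so an effect of Cre and one of the deletion cannot be told apart. The column names of the first group do not carry Cre either, and whether those livers had it is not given. The livers are called re-expressing, labelled DKO and control below.

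The libraries held between 5621667 and 6906221 reads on genes, as recovered from the TPM values, and mitochondrial genes took 5.71 to 7.38% of the TPM. Nr1d1, the targeted gene whose level should check the labels, averaged 191 TPM in re-expressing livers, 82.5 TPM in livers labelled DKO and 68.7 TPM in control livers, and Nr1d2 97.7, 90.4 and 96.6 TPM. Neither gene was called in either direction between livers labelled DKO and control livers (adjusted p = 0.173 and 0.792 by limma). Whether the counted reads lie inside the deleted part is not given in the labels. Control replicates 3 and 4 stood apart from control replicates 1 and 2 on the second principal component, at -43.8 and -48.7 against 26.9 and 6.36. Summed TPM of 8 hepatocyte markers was 51460 to 54684 in re-expressing livers, 50597 to 53875 in livers labelled DKO and 47511 to 53081 in control livers. Markers of other cells were also present: 11 stellate cell genes summed to 272 to 347, 323 to 357 and 206 to 275 TPM in the same order of groups, 9 sinusoidal endothelium genes to 204 to 310, 309 to 371 and 254 to 284, 11 Kupffer cell genes to 471 to 1148, 552 to 605 and 521 to 1152, and 5 red blood cell genes to 372 to 835, 400 to 686 and 276 to 382. Cholangiocyte genes summed to 74.5 to 106 TPM and lymphocyte genes to 6.42 to 12.5 TPM over all livers, and no marker of any list was at 0 in all 12 libraries. In whole liver, fewer cells of a type and less RNA per cell cannot be told apart.

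Promoter sequences are shown for the receptor that was most raised in livers labelled DKO (Ppard), the one that was most lowered (Esr1) and the one called gene with promoter entries that held the searched motif (Pparg). They are RefSeq entries on GRCm38.p6, from 250 bases before to 50 bases after a start site, printed 5′ to 3′ on the plus strand, and capitals mark AGGTCA, the core motif to which many nuclear receptors bind. The windows lie at chr17:28232504-28232803 (Ppard), chr10:4611739-4612038 (Esr1), chr6:115360894-115361193 (the first of Pparg) and chr6:115362099-115362398 (the second of Pparg).
Ppard: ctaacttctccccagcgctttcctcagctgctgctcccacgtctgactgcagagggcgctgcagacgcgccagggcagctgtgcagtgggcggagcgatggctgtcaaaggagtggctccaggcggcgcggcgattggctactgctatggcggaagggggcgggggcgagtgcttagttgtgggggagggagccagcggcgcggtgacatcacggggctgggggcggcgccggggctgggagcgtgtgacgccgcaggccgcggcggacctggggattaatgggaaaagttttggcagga
Esr1: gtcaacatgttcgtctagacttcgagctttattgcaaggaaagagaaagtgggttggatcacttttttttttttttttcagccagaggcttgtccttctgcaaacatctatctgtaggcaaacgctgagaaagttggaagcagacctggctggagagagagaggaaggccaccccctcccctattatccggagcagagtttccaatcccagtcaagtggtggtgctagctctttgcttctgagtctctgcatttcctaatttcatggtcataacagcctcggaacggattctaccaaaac
Pparg, first: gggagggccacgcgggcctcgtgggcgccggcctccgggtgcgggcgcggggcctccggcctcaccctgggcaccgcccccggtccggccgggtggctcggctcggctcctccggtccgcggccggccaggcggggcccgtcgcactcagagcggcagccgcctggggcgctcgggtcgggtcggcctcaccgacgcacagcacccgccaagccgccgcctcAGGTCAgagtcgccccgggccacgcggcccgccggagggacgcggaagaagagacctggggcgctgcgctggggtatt
Pparg, second: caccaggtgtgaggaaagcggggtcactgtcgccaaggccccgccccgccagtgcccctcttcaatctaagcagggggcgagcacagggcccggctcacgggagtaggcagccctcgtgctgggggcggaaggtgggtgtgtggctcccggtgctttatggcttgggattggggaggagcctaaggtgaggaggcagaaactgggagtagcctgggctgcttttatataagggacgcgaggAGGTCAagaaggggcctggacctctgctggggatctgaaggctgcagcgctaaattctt
The Ppard window and the Esr1 window held no AGGTCA on either strand, nor did a second Esr1 entry (chr10:4709908-4710207) that is not printed. Pparg has 3 entries: each of the printed windows held AGGTCA once, and the third (chr6:115421816-115422115) held none. In the printed windows its first base lay at -28 and at -9 from the start site. Of 52 promoter entries that matched 32 of the receptor genes, 9 held AGGTCA on either strand (17.3%), against 16.3% of all 32851 promoters in the table. TAGGTCA, the core of the element bound by REV-ERB and ROR receptors, which contains AGGTCA, was in 0 of the 52 entries and in 2.61% of all promoters. A match is a stretch of letters and not a binding site, and no match says only that these letters are not in these windows.

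The 33 genes covered a wide range of levels. By their mean in control livers, 3 genes were at 100 TPM or more, 13 at 10 to 100, 10 at 1 to 10 and 7 under 1 TPM. Hnf4a, which encodes the master regulator of hepatocyte genes, was the most abundant, at 532 ± 13.1 TPM in re-expressing livers, 500 ± 25.04 in livers labelled DKO and 448 ± 38.5 in control livers (SD, n = 4 each). Rxra, the main liver partner of the heterodimeric receptors, followed at 235 ± 27.6, 213 ± 21.4 and 254 ± 34.5 TPM in the same order, and Nr1i2, which encodes the drug sensor PXR, at 131 ± 18.3, 111 ± 9.47 and 116 ± 3.21 TPM. Summed over all 33 genes, each liver held between 1207 and 1400 TPM of receptor RNA. The plot of levels by liver shows overlapping groups for most genes. By mean level among the 33, Ppard ranked 22 in re-expressing livers, 12 in livers labelled DKO and 23 in control livers.

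**Figure D1:**
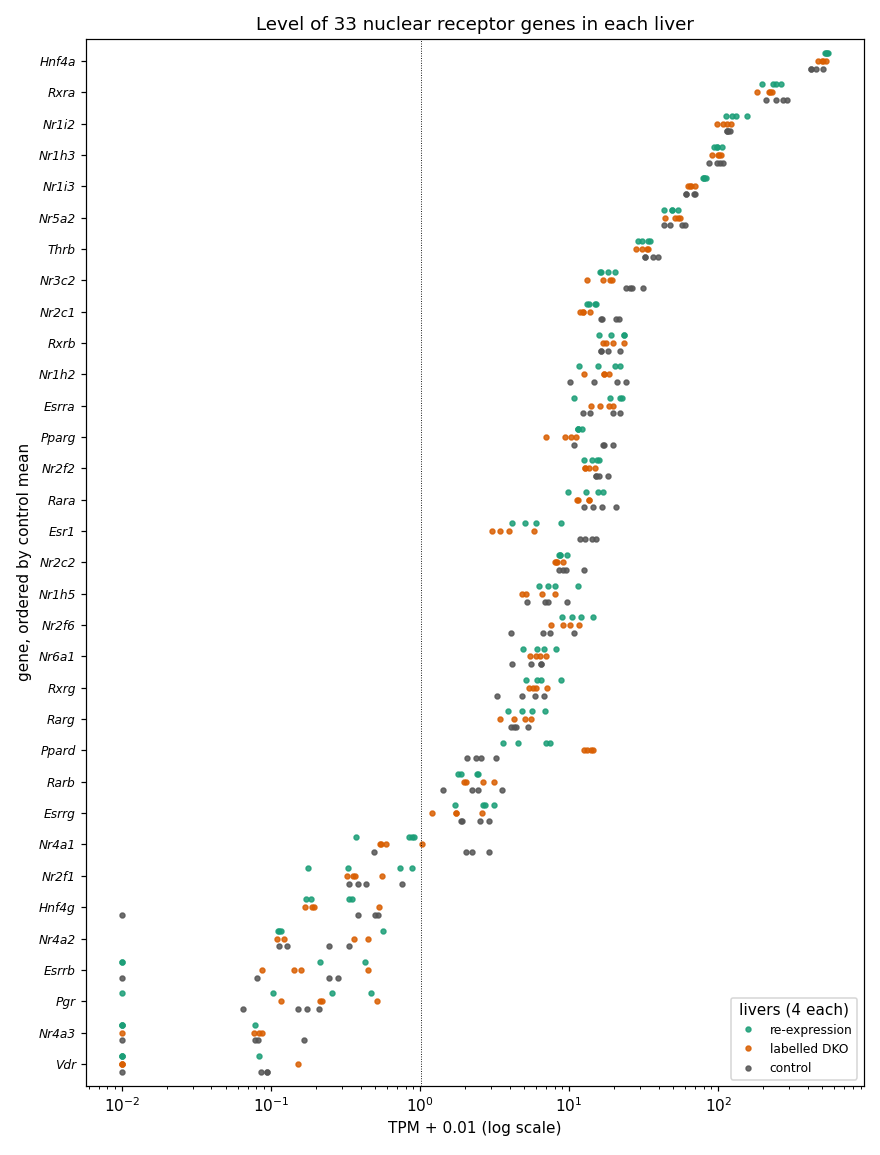
TPM of each of the 33 receptor genes in each of 12 livers, on a log axis after adding 0.01, with genes ordered from top to bottom by their control mean and 4 points per group. Most genes show 3 overlapping clouds; the points of Ppard in livers labelled DKO (12.6 to 14.6 TPM) lie to the right of the others and those of Esr1 in control livers (11.8 to 15.1 TPM) to the right of both other groups, and the dotted line marks 1 TPM.

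The first question the design asks is how livers labelled DKO differ from control livers. The test was limma on log2(TPM + 1) over all 17957 genes that averaged at least 1 TPM, with adjusted p under 0.05 (Benjamini-Hochberg) counted as called. Of the 26 tested receptor genes, 1 was called higher (Ppard) and 4 lower (Esr1, Nr2c1, Nr3c2 and Pparg); over all genes tested, 2.99% were called higher and 2.34% lower. In 5 of the 26 the groups did not overlap, against 11.5% of all genes. The median change of the 26 was -0.05 on the log2(TPM + 1) scale, against 0.00 over all genes, and their median absolute change was 0.21 against 0.19. With the spread estimated from the 8 livers of the comparison alone, Ppard and Esr1 were the 2 genes still called. On this scale the differences of genes of low TPM come out too small.

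The second comparison, of re-expressing livers with livers labelled DKO, called none of the 26 genes by limma at an adjusted p under 0.05, against 0.0278% of all genes called in the higher and 0.0446% in the lower direction. Unadjusted p-values fell under 0.05 for 3 receptor genes (Ppard, Nr1i3 and Nr1i2) and for 1111 genes in all, and voom on the recovered reads called 1 receptor gene, Ppard. The groups did not overlap for 3 receptor genes, against 4.25% of all genes: Nr1i3 and Pparg were higher and Ppard lower in each re-expressing liver. The third comparison, of re-expressing with control livers, called 2 receptor genes higher (Ppard and Nr1i3) and 1 lower (Esr1), against 1.16% and 0.663% of all genes. In 6 of the 26 these groups did not overlap, against 7.28% of all genes. These 3 comparisons share livers, so their values are given side by side and are not independent of each other.

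**Figure D2:**
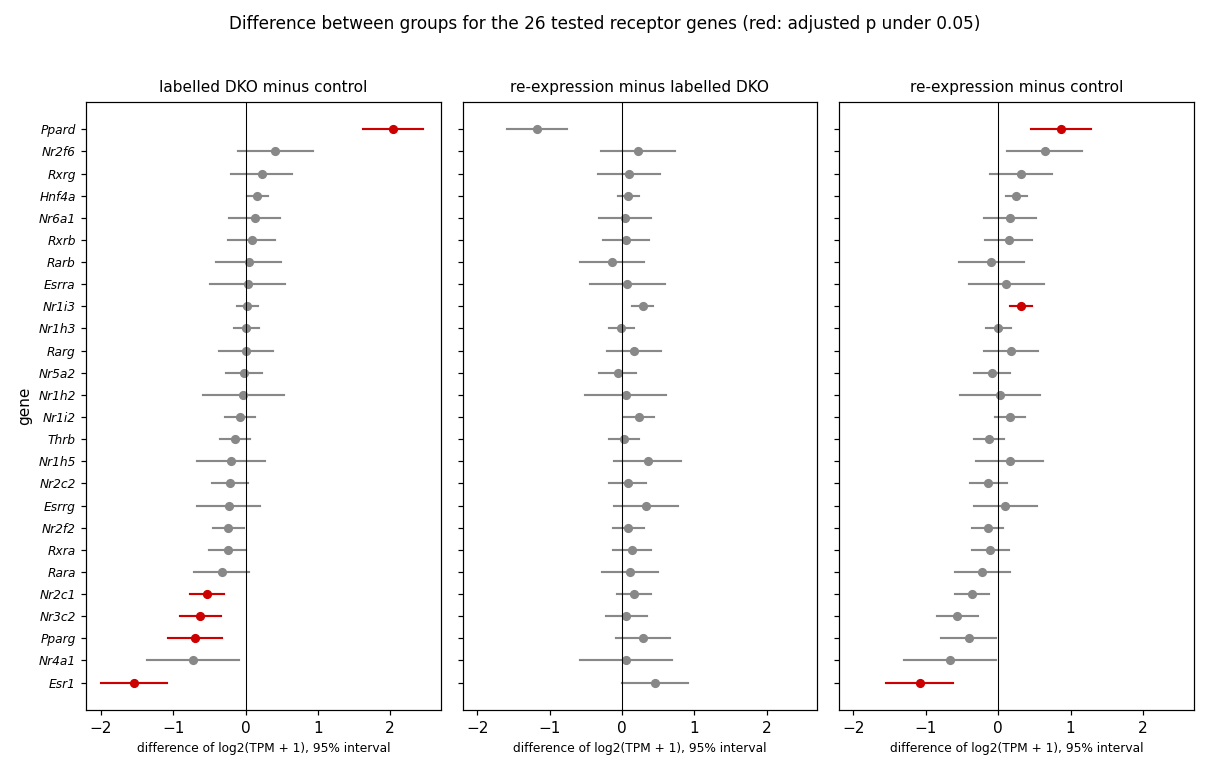
Difference of log2(TPM + 1) for the 26 tested receptor genes in each comparison, first group minus second, with 95% confidence intervals from limma; red marks an adjusted p under 0.05. Ppard stands at 2.04, -1.18 and 0.87 from the left panel to the right and Esr1 at -1.54, 0.45 and -1.09, while most intervals of the other genes cross 0.

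Among the PPAR receptors, which bind fatty acids and their derivatives, Ppard differed most. Ppard encodes PPAR delta, which activates fatty acid oxidation in many tissues, and lies on chromosome 17 (mm10, GENCODE M21, 28232700 to 28301474, plus strand). It was at 3.57, 7.46, 4.56 and 6.95 TPM in the re-expressing livers, at 14.6, 14.0, 13.1 and 12.6 TPM in the livers labelled DKO and at 2.05, 2.55, 3.25 and 2.38 TPM in the control livers. Each liver labelled DKO was above each re-expressing liver, and each re-expressing liver was above each control liver. Ppard rose in livers labelled DKO against control livers by 2.04 ± 0.19 on the log2 scale (SE), a 5.31-fold ratio of the means, with an adjusted p of 9.563e-05 by limma. This call held in each of the 20 alternatives, in which the difference ran between 1.97 and 2.43. That range mixes scales, since the pseudocount of 0.1 and voom do not use log2(TPM + 1). In re-expressing livers Ppard was 1.18 ± 0.19 lower on the log2 scale than in livers labelled DKO, at 5.64 against 13.6 TPM, with an adjusted p of 0.0621. It passed the threshold by voom (adjusted p = 0.0022) and without re-expressing replicate 2 (0.0462), and its adjusted p over the alternatives ran between 0.0022 and 0.197. Against control livers Ppard was higher in re-expressing livers by 0.87 ± 0.19, at an adjusted p of 0.0435, and 16 of 20 alternatives lost that call, including each that left out a single liver other than re-expressing replicate 1 (0.0527 to 0.131).

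Pparg encodes PPAR gamma, which drives lipid storage in fat cells and is a low-level gene of lean liver; it lies on chromosome 6 (115360951 to 115490399, plus strand). It was at 11.5, 11.5, 11.4 and 12.3 TPM in the re-expressing livers, at 7.01, 10.3, 11.1 and 9.44 TPM in the livers labelled DKO and at 17.2, 19.7, 10.8 and 16.9 TPM in the control livers. Control replicate 3 fell inside the range of the livers labelled DKO, and the other 3 control livers were above all other livers. Pparg fell in livers labelled DKO by 0.70 ± 0.17 on the log2 scale (adjusted p = 0.0379 by limma), a call that was lost in 13 of 20 alternatives, among them leaving out any of control replicates 1, 2 and 4, of replicates 1, 2 and 4 labelled DKO, or any re-expressing liver (adjusted p 0.0519 to 0.104). Re-expressing and control livers differed by -0.41 at an adjusted p of 0.346. Gm44079, a gene on the opposite strand that overlaps Pparg, averaged 3.10, 1.91 and 4.27 TPM in re-expressing livers, livers labelled DKO and control livers. By mean this is the same order of groups as for Pparg. The library kit keeps strand, but no source used here says whether the counting did, and whether the genes exchanged reads was not tested.

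Of 13 target genes of PPAR gamma and PPAR delta, 10 were tested; in livers labelled DKO against control livers 2 were called higher and 1 lower, with a median change of 0.04 against 0.00 over all genes. Lpl, the lipoprotein lipase that frees fatty acids from circulating triglyceride, was at 29.5, 15.5, 13.9 and 15.4 TPM in re-expressing livers, 35.4, 40.8, 61.0 and 66.9 TPM in livers labelled DKO and 12.5, 11.6, 12.5 and 12.5 TPM in control livers. It rose by 1.92 ± 0.24 in livers labelled DKO against control livers (adjusted p = 0.000826 by limma), without overlap. In re-expressing livers Lpl was 1.43 ± 0.24 lower than in livers labelled DKO at an adjusted p of 0.0766, which became 0.00413 by voom and 0.0127 without re-expressing replicate 1. Pdk4, a kinase that shuts pyruvate out of the mitochondrial oxidation, rose by 2.06 ± 0.40 (19.9 against 3.76 TPM, adjusted p = 0.0127). Ucp2, a mitochondrial carrier, fell by 0.70 ± 0.16 (6.16 against 10.6 TPM, adjusted p = 0.0256), with adjusted p of 0.0685 to 0.0805 when control replicate 1 or 3 or replicate 1, 2 or 4 labelled DKO was left out. None of the 10 was called in re-expressing livers against either other group.

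**Figure D3:**
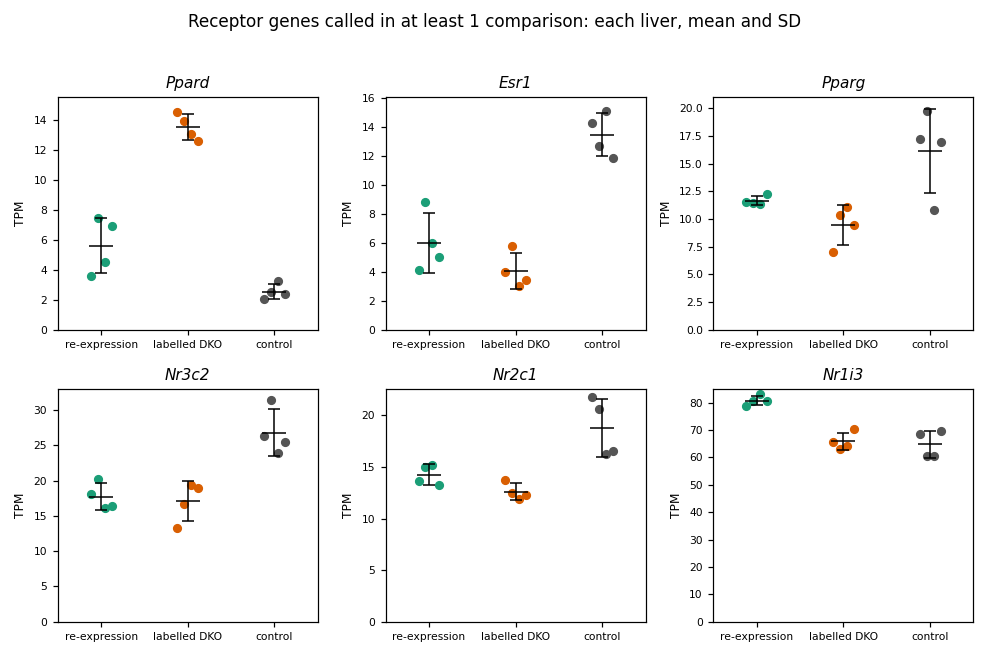
TPM of the 6 receptor genes called in at least 1 comparison, with 1 point per liver, the mean as a horizontal bar and the SD as an error bar (n = 4 per group; each axis starts at 0). Ppard is highest in livers labelled DKO (12.6 to 14.6 TPM), Esr1, Nr3c2 and Nr2c1 are highest in control livers without overlap, Pparg has 1 control liver at 10.8 TPM among the others, and Nr1i3 is highest in re-expressing livers (78.8 to 83.1 TPM).

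Of the steroid receptors, Esr1 and Nr3c2 were lower in livers labelled DKO. Esr1 encodes estrogen receptor alpha, the main estrogen receptor of hepatocytes, and lies on chromosome 10 (4611593 to 5005614, plus strand). It was at 4.11, 8.85, 5.97 and 5.04 TPM in re-expressing livers, at 3.96, 5.78, 3.04 and 3.43 TPM in livers labelled DKO and at 14.3, 12.7, 15.1 and 11.8 TPM in control livers. Each control liver was above each of the other 8 livers, whose groups overlapped each other. Esr1 fell by 1.54 ± 0.21 in livers labelled DKO against control livers, 3.32-fold by the means, with an adjusted p of 0.0015 by limma, and this call held in each of the 20 alternatives. It fell by 1.09 ± 0.21 in re-expressing livers against control livers, 2.25-fold, at an adjusted p of 0.0228; this call was lost without control replicate 1, 2 or 3 or re-expressing replicate 1, 3 or 4 (0.0504 to 0.0754). Re-expressing livers and livers labelled DKO differed by 0.45, with a 95% interval of -0.0041 to 0.91 and an adjusted p of 0.817. Of 8 estrogen receptor target genes 5 were tested, and none was called in any comparison by limma; their median change was 0.09 in livers labelled DKO and -0.39 in re-expressing livers, both against control livers.

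Nr3c2, on chromosome 8 (76899442 to 77245012, plus strand), encodes the mineralocorticoid receptor, which binds aldosterone and glucocorticoids. It was at 18.1, 20.2, 16.1 and 16.5 TPM in re-expressing livers, at 13.2, 16.7, 19.4 and 18.9 TPM in livers labelled DKO and at 26.3, 31.5, 23.9 and 25.4 TPM in control livers. Again each control liver was above the other 8. Nr3c2 fell by 0.63 ± 0.13 in livers labelled DKO (adjusted p = 0.0176 by limma; 0.0525 with the 8 livers alone). In re-expressing livers it was 0.57 ± 0.13 lower than in control livers, with an adjusted p of 0.0524 that passed the threshold by voom (0.0116), with size factors (0.0356), with a filter of 5 TPM (0.0338) and without replicate 1 labelled DKO (0.0299). Pgr, the progesterone receptor, was between 0 and 0.509 TPM in all livers and was not tested.

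The drug-sensing receptors PXR and CAR, which induce the enzymes that clear drugs and bilirubin, were higher by mean in re-expressing livers. Nr1i3 encodes CAR and lies on chromosome 1 (171213970 to 171220701, plus strand). It was at 78.8, 80.5, 83.1 and 80.6 TPM in re-expressing livers, at 65.7, 63.2, 64.2 and 70.3 TPM in livers labelled DKO and at 68.6, 60.5, 60.4 and 69.7 TPM in control livers. The 4 re-expressing livers lay close together and above the other 8, whose groups overlapped. Nr1i3 rose by 0.32 ± 0.07 in re-expressing livers against control livers (80.7 ± 1.75 against 64.8 ± 5.05 TPM, adjusted p = 0.036 by limma), a call lost in 12 of 20 alternatives, among them leaving out control replicate 2 or 3, replicate 1 or 2 labelled DKO or any re-expressing liver (0.0542 to 0.104). Against livers labelled DKO the difference was 0.29 ± 0.07 at an adjusted p of 0.216, and livers labelled DKO differed from control livers by 0.03, with a 95% interval of -0.12 to 0.17. Tomm40l, which overlaps Nr1i3 on the opposite strand, averaged 13.6, 10.4 and 12.2 TPM in re-expressing livers, livers labelled DKO and control livers. Like Nr1i3 it was highest by mean in re-expressing livers, and whether the genes exchanged reads was not tested. Nr1i2, for PXR, was at 113, 132, 156 and 123 TPM in re-expressing livers, 121, 108, 114 and 98.9 TPM in livers labelled DKO and 114, 114, 116 and 121 TPM in control livers. Its groups overlapped in every comparison, and re-expressing livers differed from livers labelled DKO by 0.24 (unadjusted p = 0.0282, adjusted p = 0.711).

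Of 17 target genes of PXR and CAR, 16 were tested; 1 was called higher and 3 lower in livers labelled DKO against control livers, with a median change of 0.02. Cyp2c55, a cytochrome P450, was at 34.8, 13.5, 12.9 and 26.3 TPM in re-expressing livers, 53.7, 39.5, 61.4 and 36.7 TPM in livers labelled DKO and 3.94, 19.0, 12.2 and 10.955 TPM in control livers. It rose by 2.10 ± 0.41 in livers labelled DKO against control livers (adjusted p = 0.014 by limma). Ugt1a1, the transferase that conjugates bilirubin, fell by 0.62 ± 0.09 there, at 107 ± 3.05 against 165 ± 12.7 TPM (adjusted p = 0.00207). Por, the reductase that feeds electrons to the P450 enzymes, fell by 0.69 ± 0.14 (243 against 394 TPM, adjusted p = 0.0189), and without replicate 4 labelled DKO the adjusted p was 0.0529. The call of Por was also lost with the 8 livers alone (0.0514). Without control replicates 3 and 4, a setting chosen after the data were seen, the difference was -0.48 (0.0848). Cyp3a13 fell by 0.82 ± 0.19 (167 against 303 TPM, adjusted p = 0.0294), and its call was lost without control replicate 1, 2 or 3 or replicate 1, 3 or 4 labelled DKO (0.0563 to 0.0809). Re-expressing livers against control livers had 1 call, Ephx1, an epoxide hydrolase, higher by 0.59 ± 0.13 (1566 against 1053 TPM, adjusted p = 0.0412), which was lost when any one liver other than control replicates 2 and 3 was left out (0.0581 to 0.109).

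**Figure D4:**
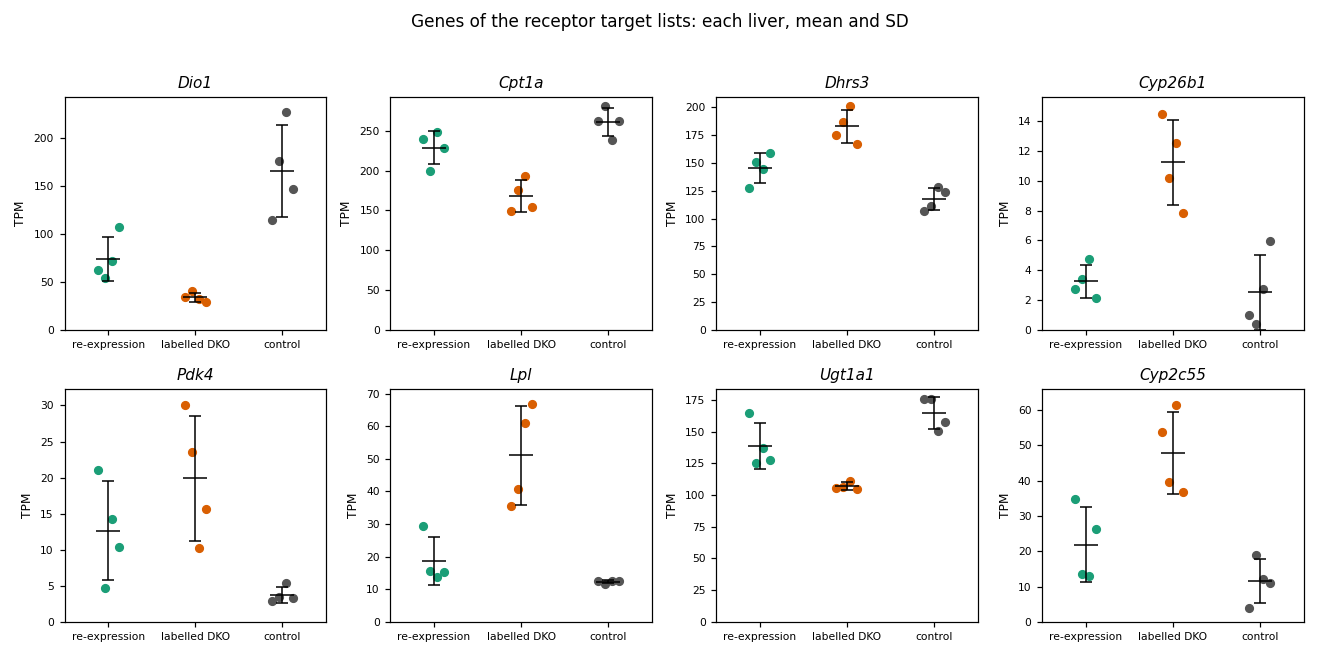
TPM of 8 genes from the target lists of the receptors, with 1 point per liver, the mean as a horizontal bar and the SD as an error bar (n = 4 per group; each axis starts at 0). Livers labelled DKO are lowest for Dio1, Cpt1a and Ugt1a1 and highest by mean for the other 5, and re-expressing livers have means between those of livers labelled DKO and control livers for all 8. The 8 were picked from list genes called in livers labelled DKO against control livers. Slc10a1, also called there and not shown, had its lowest mean in re-expressing livers.

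Among the orphan receptors, which have no settled ligand and mostly repress, 1 was called. Nr2c1, on chromosome 10 (94148023 to 94197211, plus strand), encodes TR2, and Nr2c2 its close relative TR4. Nr2c1 was at 13.6, 15.0, 15.2 and 13.2 TPM in re-expressing livers, at 13.7, 12.4, 11.9 and 12.3 TPM in livers labelled DKO and at 21.7, 20.6, 16.3 and 16.5 TPM in control livers. All control livers were above all others, and control replicates 1 and 2 were above control replicates 3 and 4. Nr2c1 fell by 0.53 ± 0.11 in livers labelled DKO (adjusted p = 0.015 by limma; 0.0525 with the 8 livers alone). Re-expressing livers were 0.37 ± 0.11 lower than control livers at an adjusted p of 0.133; the difference was -0.54 (0.0295) without control replicates 3 and 4, a setting chosen after the data were seen, and -0.38 (0.049) with size factors.

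Nr2c2 was at 8.92 ± 0.515, 8.39 ± 0.505 and 9.98 ± 1.84 TPM in re-expressing livers, livers labelled DKO and control livers, and no comparison passed the test. Nr2f2, which encodes COUP-TFII, a receptor of veins and of several other cell types, was at 12.8, 14.8, 13.6 and 12.8 TPM in livers labelled DKO and at 15.97, 18.3, 15.2 and 15.1 TPM in control livers. These groups did not overlap, and the difference of -0.24 ± 0.10 had an adjusted p of 0.216; the summed endothelial markers were higher in the same livers labelled DKO (1.28 times, exact two-sided permutation p = 0.0286, the smallest that 4 against 4 allows, 0.2 after adjustment over 21 tests), and their part in the difference was not tested. Nr2f6, for EAR2, averaged 11.4 ± 2.33, 9.59 ± 1.70 and 7.24 ± 2.80 TPM in re-expressing livers, livers labelled DKO and control livers, with the control livers spread 2.69-fold. Re-expressing livers differed from control livers by 0.64 ± 0.23 in Nr2f6 (adjusted p = 0.256). Nr6a1, for the germ cell nuclear factor, was between 4.10 and 8.12 TPM in all livers, and Nr2f1, for COUP-TFI, between 0.168 and 0.876 TPM. Genes on the opposite strand overlap Nr2f6 (Ocel1, a mean of 8.03 TPM over all livers) and Nr6a1 (among others Rpl15-ps4 at 7.82 and Nr6a1os at 6.59). Nr2c2 is overlapped by Gm44249 (3.96) and Mrps25 (3.84), and whether any of these genes exchanged reads was not tested.

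Of the receptors of hepatocyte identity, Hnf4a was at 525, 546, 518 and 540 TPM in re-expressing livers, 505, 469, 530 and 498 TPM in livers labelled DKO and 451, 501, 420 and 419 TPM in control livers. Each re-expressing liver was above each control liver, and the difference was 0.25 ± 0.07 with an adjusted p of 0.0946 by limma (0.0339 without control replicate 2). Livers labelled DKO differed from control livers by 0.16 ± 0.07, with a 95% interval of 0.01 to 0.31 and an adjusted p of 0.225. The antisense gene Hnf4aos averaged 38.2, 34.4 and 43.8 TPM in re-expressing livers, livers labelled DKO and control livers. It was highest by mean in control livers, where Hnf4a was lowest, and whether the genes exchanged reads was not tested. Nr5a2, for LRH-1, a receptor that supports bile acid synthesis, was at 48.8 ± 4.27, 50.9 ± 5.11 and 51.8 ± 7.59 TPM in the same groups; livers labelled DKO and control livers differed by -0.02, with a 95% interval of -0.27 to 0.23. Hnf4g, for HNF4 gamma, was between 0 and 0.525 TPM.

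Among 15 target genes of HNF4 alpha, all tested, 3 were called higher and 2 lower in livers labelled DKO against control livers (median change 0.06). Of 11 target genes of LRH-1, 1 was called higher and 2 lower (median change -0.06), and the lists share Cyp8b1 and Cyp7a1. Cyp8b1, the sterol 12-alpha-hydroxylase that sets the share of cholic acid, rose by 1.28 ± 0.18 in livers labelled DKO (762 against 314 TPM, adjusted p = 0.00168 by limma). Re-expressing livers also had more of it than control livers, at 603 TPM, by 0.94 ± 0.18 (adjusted p = 0.021, lost without control replicate 1 or 4 or re-expressing replicate 4 at 0.0504 to 0.0527). Cyp7a1, which catalyses the first and limiting step of the classic route to bile acids, was at 11.1, 69.7, 34.4 and 49.5 TPM in livers labelled DKO and at 124, 213, 175 and 115 TPM in control livers. Its fall of 2.12 ± 0.52 (adjusted p = 0.0366) was lost without any control liver, without replicate 1, 3 or 4 labelled DKO and without re-expressing replicate 1 or 2 (0.0514 to 0.0952). Fads2, a fatty acid desaturase, fell by 0.60 ± 0.11 (252 against 385 TPM, adjusted p = 0.00719). Slc10a1, the carrier that takes up bile acids from blood, fell in re-expressing livers against control livers by 0.47 ± 0.08 (546 against 756 TPM, adjusted p = 0.00876) and in livers labelled DKO by 0.34 ± 0.08 (598 TPM, adjusted p = 0.0242, lost without control replicate 1 or replicate 1 or 2 labelled DKO).

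None of the receptors for oxysterols and related sterols passed the test. Nr1h3, for LXR alpha, averaged 98.9 ± 4.67 TPM in re-expressing livers, 99.3 ± 6.13 TPM in livers labelled DKO and 98.8 ± 9.45 TPM in control livers. The 95% interval of the difference between livers labelled DKO and control livers was -0.16 to 0.18 on the log2 scale. Nr1h2, for LXR beta, was at 17.4 ± 4.61, 16.4 ± 2.56 and 17.4 ± 6.21 TPM in the same groups. Its interval of -0.59 to 0.53 was wider, so a difference anywhere in that range remains possible. Nr1h5, which encodes FXR beta, averaged 8.24, 6.15 and 7.25 TPM in the same groups, and no difference passed the test. None of the 11 LXR target genes was called in any comparison by limma, and their median change was -0.24 in livers labelled DKO against control livers. The 18 coregulators of nuclear receptors likewise held no called gene in any comparison, with medians between -0.06 and 0.03.

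The retinoid receptors RARs and RXRs bind derivatives of vitamin A, and none of the 6 was called. Rxra was at 198, 234, 263 and 245 TPM in re-expressing livers, 218, 230, 223 and 182 TPM in livers labelled DKO and 210, 245, 270 and 290 TPM in control livers; livers labelled DKO differed from control livers by -0.25 ± 0.12 (adjusted p = 0.299 by limma). Rxrb averaged 20.4, 19.5 and 18.3 TPM and Rxrg 6.60, 6.05 and 5.17 TPM in re-expressing livers, livers labelled DKO and control livers. Rara averaged 13.7, 12.5 and 16.1 TPM, Rarb 2.12, 2.44 and 2.40 TPM and Rarg 5.30, 4.58 and 4.51 TPM in the same order. Rarb overlaps Top2b on the opposite strand (18.5, 18.5 and 21.4 TPM), which was more abundant than Rarb itself.

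Of 14 genes of retinoid handling and RAR targets, 11 were tested, and 4 were called higher and none lower in livers labelled DKO against control livers by limma, while the median change of the list was 0.02 against 0.00 over all genes. Dhrs3, a retinaldehyde reductase induced by retinoic acid, was at 127, 151, 145 and 159 TPM in re-expressing livers, 176, 187, 202 and 167 TPM in livers labelled DKO and 107, 111, 128 and 124 TPM in control livers. It rose by 0.63 ± 0.09 in livers labelled DKO against control livers (adjusted p = 0.00196), without overlap. Stra6l, a receptor for retinol-binding protein in mouse liver, rose by 0.67 ± 0.10 (84.8 against 53.0 TPM, adjusted p = 0.00199), and in re-expressing livers by 0.51 ± 0.10 against control livers (76.2 TPM, adjusted p = 0.0199, lost without control replicate 1 or 4 or re-expressing replicate 4). Cyp26b1, which breaks down retinoic acid, was at 2.75, 3.43, 4.72 and 2.16 TPM in re-expressing livers, 14.5, 10.2, 12.5 and 7.83 TPM in livers labelled DKO and 0.970, 0.385, 2.75 and 5.95 TPM in control livers. Its rise of 2.04 ± 0.42 in livers labelled DKO had an adjusted p of 0.0177, and of 0.0526 and 0.0555 without control replicate 1 or replicate 1 labelled DKO. Lrat, which makes the retinyl esters stored by stellate cells, rose by 0.94 ± 0.18 (28.7 against 14.8 TPM, adjusted p = 0.0127). Lrat is itself on the list of 11 stellate cell markers, of which 4 were called higher and none lower in livers labelled DKO (Lrat, Reln, Colec11 and Dcn, with the calls of Colec11 and Dcn lost when some single livers were left out); their summed TPM was 1.46 times that of control livers without overlap (exact permutation p = 0.0286, 0.2 after adjustment), and its part in the retinoid genes was not tested.

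Thrb, which encodes the main thyroid hormone receptor of liver, averaged 32.1 ± 2.72 TPM in re-expressing livers, 31.5 ± 2.51 in livers labelled DKO and 35.1 ± 3.62 in control livers. Livers labelled DKO differed from control livers by -0.15 ± 0.09 (adjusted p = 0.45 by limma). Several genes overlap Thrb on the opposite strand, the most abundant at a mean of 28.7 TPM. Of 11 thyroid hormone target genes, all tested, none was called higher and 3 lower in livers labelled DKO against control livers (Dio1, Cpt1a and Cyp7a1; median change -0.19). Dio1, the deiodinase that activates thyroid hormone and a standard readout of its action in liver, was at 62.7, 54.0, 71.3 and 107 TPM in re-expressing livers, 34.2, 40.3, 32.2 and 29.4 TPM in livers labelled DKO and 114, 176, 227 and 147 TPM in control livers. The 3 groups did not overlap at all. Dio1 fell by 2.22 ± 0.23 in livers labelled DKO against control livers (adjusted p = 0.000212) and by 1.16 ± 0.23 in re-expressing livers against control livers (adjusted p = 0.0255, lost without control replicate 2 or 3 or re-expressing replicate 1, 2 or 3 at 0.0625 to 0.0734). Between re-expressing livers and livers labelled DKO the difference of 1.06 ± 0.23 had an adjusted p of 0.176. Cpt1a, which admits fatty acids to mitochondria, was at 239, 200.1, 249 and 228 TPM in re-expressing livers, 150, 176, 193 and 154 TPM in livers labelled DKO and 263, 282, 238 and 262 TPM in control livers. It fell by 0.64 ± 0.10 in livers labelled DKO against control livers, without overlap (adjusted p = 0.00274).

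Estrogen-related receptors raise genes of oxidative metabolism together with the coactivator PGC-1alpha. Esrra averaged 18.6 ± 5.43 TPM in re-expressing livers, 17.0 ± 2.57 in livers labelled DKO and 16.9 ± 4.64 in control livers, and Esrrg 2.55 ± 0.609, 1.82 ± 0.583 and 2.30 ± 0.493 TPM. Neither passed the test in any comparison, and Esrrb was between 0 and 0.436 TPM. Esrra overlaps Trmt112 on the opposite strand, which averaged 23.5, 22.3 and 20.3 TPM. Of 13 target genes of these receptors 12 were tested, and 6 were called higher and none lower in livers labelled DKO against control livers, with a median change of 0.30 against 0.00 over all genes. Atp5b, a subunit of the ATP synthase, rose by 0.31 ± 0.05 (765 ± 14.2 against 618 ± 31.0 TPM, adjusted p = 0.00594 by limma), and Sdha, a subunit of succinate dehydrogenase, by 0.33 ± 0.06 (472 ± 11.8 against 376 ± 20.6 TPM, adjusted p = 0.00989). Pdk4, named above with the PPAR targets, is on this list too. In re-expressing livers Atp5b and Sdha were at 703 and 426 TPM, and none of the 12 genes was called in re-expressing livers against either other group by limma. The gene for PGC-1alpha, Ppargc1a, averaged 5.22, 4.54 and 7.44 TPM in re-expressing livers, livers labelled DKO and control livers, and livers labelled DKO differed from control livers by -0.59 ± 0.19 (adjusted p = 0.112).

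The NR4A receptors are induced within minutes to hours by stress, feeding and hormones and act without a known ligand in their pocket. Nr4a1, which encodes NUR77, was at 0.907, 0.868, 0.8291 and 0.360 TPM in re-expressing livers, at 0.583, 1.03, 0.526 and 0.542 TPM in livers labelled DKO and at 2.01, 0.479, 2.21 and 2.90 TPM in control livers. Control replicate 2 was among the other groups, and the other 3 control livers were above all 8. The values rest on 3 to 21 reads a liver. Livers labelled DKO differed from control livers by -0.72 ± 0.29 (adjusted p = 0.209 by limma), and the gene passed the threshold without control replicate 2, at -1.02 (0.0297). Nr4a2 was at 0.555 TPM or less in each liver and Nr4a3 at 0.158 TPM or less. Of 19 immediate early genes 15 were tested; their median change was -0.23 in livers labelled DKO and -0.24 in re-expressing livers, both against control livers, with 0.00 and 0.01 over all genes. The 1 called gene was Fos, lower by 1.34 ± 0.31 in livers labelled DKO (1.15 against 4.32 TPM, adjusted p = 0.0297), with adjusted p of 0.0505 to 0.0824 when control replicate 1, 3 or 4 or replicate 1 or 4 labelled DKO was left out. None of the 4 tested genes of 5 related to NR4A receptors was called in any comparison.

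The vitamin D receptor gene Vdr had the lowest mean of the 33 over the 12 livers. It had 1 read in 1 of 4 re-expressing livers, 2 reads in 1 liver labelled DKO and 1 read in each of 3 control livers, and none in the other 7 libraries, where 0 reads allow up to 3. Of 7 vitamin D target genes 3 were tested and none was called by limma in any comparison. The 7 genes under 1 TPM over all livers (Nr2f1, Hnf4g, Nr4a2, Esrrb, Pgr, Nr4a3 and Vdr) had between 1 and 25 reads summed over a group of 4 livers, so that only large differences could be seen. With no filter on low values, all 7 entered the test and none was called by limma, with adjusted p of 0.716 or more in each comparison.

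The members also varied within groups. The ratio of the highest to the lowest liver had a median of 1.42 over the 26 tested genes in re-expressing livers (1.05 to 2.52), 1.30 in livers labelled DKO (1.11 to 2.171) and 1.43 in control livers (1.06 to 6.06). The widest were Nr4a1 at 6.06 and Nr2f6 at 2.69 in control livers, followed by Nr4a1 at 2.52 in re-expressing livers. Rarb at 2.501 and Nr1h2 at 2.35 came next, both in control livers. The narrowest were Nr1i3 and Hnf4a in re-expressing livers, at 1.05 each, and Nr1i2 in control livers at 1.06. Control replicates 3 and 4 were both above control replicates 1 and 2 for 11 of the 26 genes (42.3%, against 15.2% of all genes) and both below them for 9 (34.6%, against 38.3%). Those above were Esrra, Esrrg, Nr1h2, Nr1h3, Nr1i2, Nr2f6, Nr4a1, Rara, Rarb, Rxra and Rxrb, and those below were Hnf4a, Nr1h5, Nr2c1, Nr2f2, Nr3c2, Nr5a2, Pparg, Rxrg and Thrb. Ppard and Esr1 were in neither set.

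**Figure D5:**
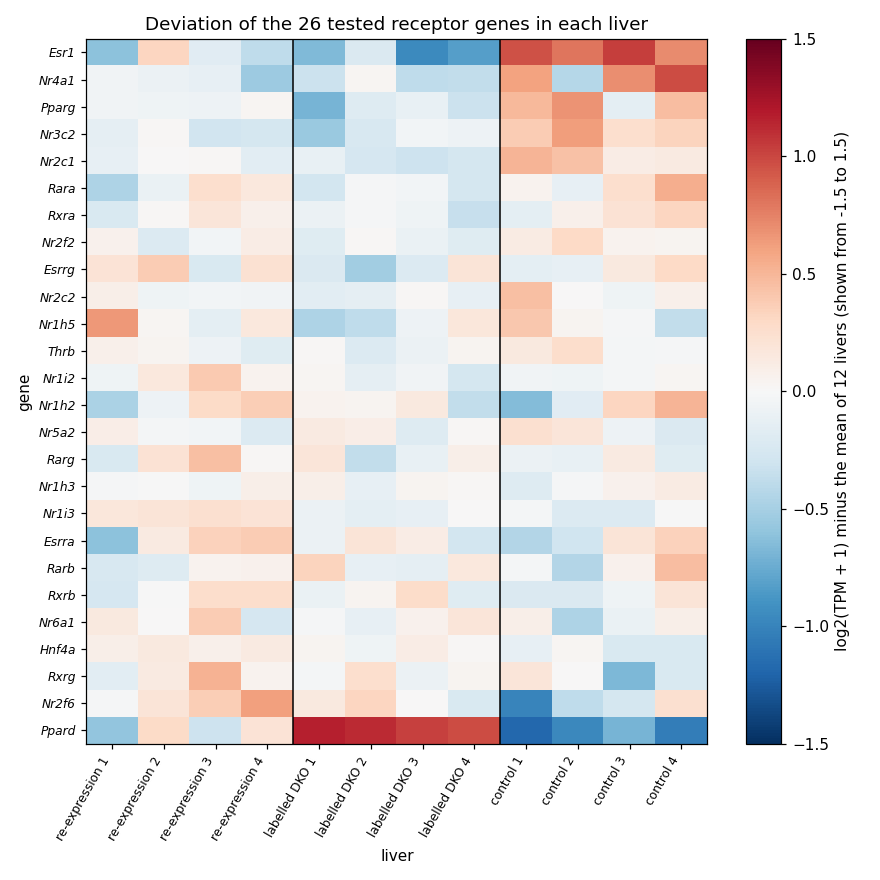
log2(TPM + 1) of the 26 tested receptor genes in each liver minus the gene's mean over 12 livers, on a color scale from -1.5 to 1.5, with genes ordered by the difference between livers labelled DKO and control livers. Ppard is the deepest red row in the livers labelled DKO and the deepest blue in control livers, and Esr1 runs the other way. Nr2f6, Nr1h2 and Esrra shift between livers within the control group and within the re-expressing group.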

How the data were processed

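The authors deposited 1 table of TPM values per gene for 12 liver libraries, made from total RNA with a stranded kit, 1 library per liver per the labels' protocols. The submitters' processing notes name bcl2fastq 2.17, STAR 2.7.1a, SAMtools 1.9, featureCounts 2.0.1, DESeq2 1.36.0 and the build mm10; whether counting used strand and how multi-mapping reads were treated are not given in the sources used here. Genes that share sequence or overlap may therefore exchange reads. Columns named YFP_WT, YFP_Cre and YFP were matched by these words to the labels of the re-expressing, DKO and wild-type livers. The authors' fold changes for 3 numbered comparisons, which the headers do not name, were not used.

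Tests were run in R 4.3.3 with limma 3.58.1 (trend in the prior variance) on log2(TPM + 1) for 17957 genes averaging at least 1 TPM, with 3 group means fitted to all 12 libraries, 9 residual degrees of freedom, two-sided p-values and Benjamini-Hochberg adjustment over all genes. The fit was tested on simulated data. Summed marker TPM was compared by exact permutation over livers. TPM is not a count, but 100% of the values were whole reads within 0.01 of a read once scaled by gene length minus 199 bases, and voom in limma was run on those reads as an alternative. Depth was 5621667 to 6906221 reads, and a value of 0 allows up to 3 reads, for counting error only. No 2 libraries of a group agreed within counting noise (chi-square per degree of freedom 4.59 to 15.6); that each comes from its own liver rests on the labels, not on this check. The p-values measure the spread between these livers.

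The receptor genes, the 13 lists of other pathway genes (152 genes) and the 7 marker lists (58 genes) were chosen with earlier results of these data known; 1 further pathway gene is not reported here and is left out of the counts. All 33 receptor genes may be named; of each pathway list, up to 4 genes with the smallest p in each comparison; of the markers, those called. Positions are from GENCODE M21 on mm10, where 31 of 33 gene IDs matched with their version and all 33 without it. Alternatives were another pseudocount (0.1), filter (none, or 5 TPM), scaling (size factors), the 8 livers of a comparison alone, a replicate block, voom, leaving out each liver and, chosen after seeing the data, leaving out control replicates 3 and 4 together.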

Additional observations from a re-analysis of the deposited data

Results flagged for a closer look

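In 78 groups of 4 livers (26 receptor genes in 3 groups), the gap between the most extreme liver and the next was set against the whole range of the group, and 4 groups passed Dixon's 95% limit for 4 values; chance alone passes about 1 group in 20. Nr2c2 was at 9.69 TPM in re-expressing replicate 1 and at 8.61 to 8.73 TPM in the other re-expressing livers, a gap of 0.892 of the range. Nr4a1 was at 1.03 TPM in replicate 2 labelled DKO and at 0.526 to 0.583 TPM in the other livers labelled DKO, a gap of 0.887. Nr4a1 was also at 0.360 TPM in re-expressing replicate 4 and at 0.8291 to 0.9065 TPM in the other re-expressing livers, a gap of 0.858. Pparg was at 12.3 TPM in re-expressing replicate 4 and at 11.4 to 11.5 TPM in the others, a gap of 0.850. None of these genes was called in re-expressing livers in any comparison.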

How the results depend on the processing

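No difference of a receptor gene between groups changed sign where it was called, in any of the 20 alternatives. For livers labelled DKO against control livers, 5 receptor genes and 958 genes in all were called; leaving out 1 liver gave 4 to 5 and 573 to 922, and the 8 livers of the comparison alone gave 2 and 559. For re-expressing livers against livers labelled DKO, the counts were 0 and 13; leaving out 1 liver gave 0 to 1 and 5 to 15, voom gave 1 and 34, and the 8 livers alone gave 20 genes in all. For re-expressing against control livers, the counts were 3 and 327; leaving out 1 liver gave 0 to 2 and 175 to 332, the 8 livers alone 0 and 162, voom 537 genes in all, and leaving out control replicates 3 and 4 together 1 receptor gene. Some of these settings held fewer livers, and the cause of the shifts was not tested.

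With the replicate number as a block, 8 genes were called between re-expressing livers and livers labelled DKO, and 1 receptor gene (Esr1) and 209 genes between re-expressing and control livers, where Ppard and Nr1i3 had adjusted p of 0.0852 and 0.0683; Pparg had 0.0738 between livers labelled DKO and control livers. The numbers were not taken to pair livers: deviations of same-numbered livers correlated at -0.07 to -0.02, -0.05 to -0.02 and 0.04 to 0.14 in the 3 comparisons, although all 8 re-expressing and control livers were closest to their own number, a hint from the data and not from the design. Depth limits the genes under 1 TPM, which had 1 to 25 reads a group.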

Other observations

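Sox9, not described above, and Reln, named above without its values, are among the called markers of other cells. Sox9, a transcription factor of bile duct cells and of hepatocytes near them, averaged 6.58 ± 1.19 TPM in re-expressing livers, 8.97 ± 2.32 TPM in livers labelled DKO and 2.04 ± 0.589 TPM in control livers (SD, n = 4 each). It was called higher by limma in livers labelled DKO against control livers (1.70 ± 0.21 on the log2 scale, adjusted p = 0.00078) and in re-expressing livers against control livers (1.33 ± 0.21, adjusted p = 0.0077), while the other 3 tested cholangiocyte markers were not called in either comparison. Reln, a secreted protein made by stellate cells in liver, averaged 40.2 ± 5.85 TPM in re-expressing livers, 45.5 ± 2.62 TPM in livers labelled DKO and 26.4 ± 4.58 TPM in control livers. It rose by 0.77 ± 0.13 in livers labelled DKO against control livers (adjusted p = 0.0046) and by 0.59 ± 0.13 in re-expressing livers against control livers (adjusted p = 0.0389), but 14 of 20 alternatives lost the call in re-expressing livers, including each that left out a single liver other than control replicate 4 (0.0528 to 0.109). Lrat, Colec11 and Dcn, the other called stellate markers, are named with the retinoid genes.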
